A study of Mus musculus with 6 samples.

Results

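Wnt ligands, their receptors and their secreted inhibitors were examined in mouse brown adipose tissue that lacks the transcription factor Yin Yang 1 in its brown adipocytes. The members were all probe sets whose single gene symbol on the array platform starts with Wnt, Fzd, Sfrp, Dkk or Lgr followed by a digit, together with those of Lrp5, Lrp6, Axin2, Ctnnb1 and Wif1. This rule gave 63 probe sets of 43 genes, out of 22690 probe sets on the Affymetrix expression array, which name 12393 genes singly. By role they were 19 ligand genes, 9 Frizzled receptor genes, 4 genes of co-receptors or Lgr receptors, 9 genes of secreted inhibitors and 2 intracellular genes. A single probe set stood for 29 genes, and 14 genes had several.

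The mice of both groups, on a mixed background of C57BL6 and 129, were 3.5 months of age and had eaten a high fat diet for 3 months. Control tissue came from mice with both Yy1 alleles floxed (YY1flox/flox), and YY1bKO tissue from floxed mice that also carried Ucp1Cre, whose Cre recombinase is driven by the Ucp1 promoter, active in brown adipocytes. Each group held 3 arrays of total RNA from the whole tissue. The cells of the tissue in which Ucp1 is not active were therefore measured in both groups but are not the target of the recombinase. Values are log2 intensities, differences are YY1bKO minus control on that scale, and a probe set is called at a limma adjusted p under 0.05 over all 22626 probe sets tested.

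Wnt proteins are secreted, lipid-modified ligands. They bind Frizzled receptors together with the co-receptors Lrp5 or Lrp6, which spares beta-catenin (Ctnnb1) from destruction by a complex built on Axin proteins and lets it act with TCF/LEF factors in the nucleus. Sfrp proteins and Wif1 capture the ligands outside the cell, Dkk proteins act on the co-receptors, and Lgr receptors bind R-spondins, which raise the sensitivity of a cell to Wnt. In adipose tissue the pathway is known for holding back the differentiation of preadipocytes, with Wnt10b as the ligand studied most, and Sfrp5 is known as an adipose inhibitor of Wnt5a.

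The promoters of 3 members and of the ligand carrier gene Wls are printed first. They were chosen after their values were seen, because all YY1bKO arrays lay below all control arrays for each of them in every probe set of the gene. Fzd8 and another pathway gene, Tle2, also met this and are not printed. RefSeq promoter windows on GRCm38.p6 matched 28 of the 43 member genes, and the 250 bases before the start site are given 5' to 3' on the strand of the gene. Fzd8 and Fzd3, which were called, are among the member genes without a window. Capitals mark the YY1 motif GCCATNTT. The windows are chr1:135105277-135105526 on the minus strand for Lgr6, chr7:89404116-89404365 on the plus strand for Fzd4, chr9:120933328-120933577 on the plus strand for Ctnnb1 and chr3:159839400-159839649 on the plus strand for Wls.
Lgr6: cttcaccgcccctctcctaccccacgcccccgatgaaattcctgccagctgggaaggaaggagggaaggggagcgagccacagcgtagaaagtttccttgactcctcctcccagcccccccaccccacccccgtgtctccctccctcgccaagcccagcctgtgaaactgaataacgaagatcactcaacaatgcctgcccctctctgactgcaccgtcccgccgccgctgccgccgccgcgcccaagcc
Fzd4: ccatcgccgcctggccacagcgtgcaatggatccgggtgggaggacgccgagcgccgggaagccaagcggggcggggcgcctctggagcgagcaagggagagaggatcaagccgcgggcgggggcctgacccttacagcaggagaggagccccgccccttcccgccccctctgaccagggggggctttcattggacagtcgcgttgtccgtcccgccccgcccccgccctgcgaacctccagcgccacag
Ctnnb1: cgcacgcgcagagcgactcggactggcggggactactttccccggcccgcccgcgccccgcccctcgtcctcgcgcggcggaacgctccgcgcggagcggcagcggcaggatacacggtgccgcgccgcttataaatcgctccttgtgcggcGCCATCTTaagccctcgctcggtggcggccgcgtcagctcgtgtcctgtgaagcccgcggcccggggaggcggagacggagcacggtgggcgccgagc
Wls: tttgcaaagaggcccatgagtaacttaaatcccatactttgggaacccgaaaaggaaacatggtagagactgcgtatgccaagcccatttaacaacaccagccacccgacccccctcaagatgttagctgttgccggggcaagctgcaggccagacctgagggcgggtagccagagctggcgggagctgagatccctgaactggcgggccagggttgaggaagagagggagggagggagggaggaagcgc

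The motif was searched on both strands of the whole window of 300 bases, which also takes in 50 bases after the start. It was found at 1 of the 32 windows of member genes, or 3.12%, and at 6.05% of all 32851 windows. That window is the one of Ctnnb1 shown above, where the match begins at position -98 from the start site. The TCF/LEF motif CTTTGAT, which does not overlap the YY1 motif in sequence, was found at 2 member windows, those of Wnt11 and Wnt5b, or 6.25%, and at 3.73% of all windows. A match describes the letters of the window and is no evidence of binding.

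Yy1 itself was lower in YY1bKO tissue, at 9.82 ± 0.18 in control and 8.39 ± 0.02 in YY1bKO arrays (SD, n = 3) in its brightest probe set (difference -1.43 ± 0.11, SE, limma adjusted p = 0.000887). Among 11 marker lists of cell types, all 6 measured brown adipocyte genes lay above the median intensity, with Elovl3 called higher (1.14 ± 0.29, SE). The other 5 gave differences from -0.87 (Dio2) to -0.12 (Cidea) that were not called, Ucp1 among them (-0.14 ± 0.08, limma adjusted p = 0.314), and the list median was -0.17. Endothelial genes had 5 of 9 called lower. Pericyte and smooth muscle genes had 3 of 8 called lower and 4 with uncalled differences above 0. The Schwann list had 1 of 4 lower, S100b, which brown adipocytes also make. The other 7 lists had 0 of 50 markers called by limma and 4 at an unadjusted p under 0.05. Control replicate 2 stood apart: Pearson's r across probe sets was 0.996 between the other control arrays and 0.981 at the lowest pair that included it. Whether each array is a different animal is not said in the labels. The p-values therefore reflect how these 3 arrays per group vary, and that variation may be technical.

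Most members were dim. A dim probe set is one whose mean over the 6 arrays does not exceed 6.48, the median over the arrays' probe sets, and 49 of the 63 member probe sets met this, including every probe set of 32 genes. The table has no detection calls, so whether a dim probe set measures its transcript is unknown. The 11 genes with a brighter probe set were Ctnnb1, Fzd4, Fzd7, Lrp6, Lgr6, Axin2, Fzd6, Sfrp4, Wnt5a, Fzd8 and Wnt7b. Above the median were 2 of 23 ligand probe sets, 4 of 17 Frizzled, 3 of 5 co-receptor or Lgr, 4 of 5 intracellular and 1 of 13 inhibitor probe sets. Intensities of different probe sets depend on their probes, so these levels give no order between genes.

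Of the 63 member probe sets, 3 were lower in YY1bKO tissue, 1 each of Lgr6, Fzd8 and Fzd3, and 0 were higher by limma. That is 4.76% called, where 16.0% of all probe sets were called, 8.83% as higher and 7.16% as lower. At an unadjusted p under 0.05 there were 10 lower members and 1 higher, where 3015 of all 22626 probe sets were lower and 3817 higher. The median difference was -0.000603 over the members and 0.03 over all probe sets. Among the 14 members above the median intensity 2 were called, or 14.3%, where 24.5% of all such probe sets were. Of the 14 differences 11 were below 0 with a median of -0.28. Over all 11313 such probe sets 5535 were below 0, and the median was 0.01. The 14 came from 11 genes, with Ctnnb1 giving 3 of the differences below 0. Among the dim members 1 of 49 was called, and the share over all dim probe sets was 7.50%. The groups did not overlap for 12 members, 8 with YY1bKO lower and 4 with YY1bKO higher, which is 19.0%, where 36.2% of all probe sets did so. The 3 Ctnnb1 and 2 Fzd4 probe sets are among these 8 and among the 10 lower at an unadjusted p under 0.05. These counts are therefore not of separate genes. The 4 higher ones were dim probe sets of Wnt7b, Wnt9a, Wnt10a and Dkk4.

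**Figure D1:**
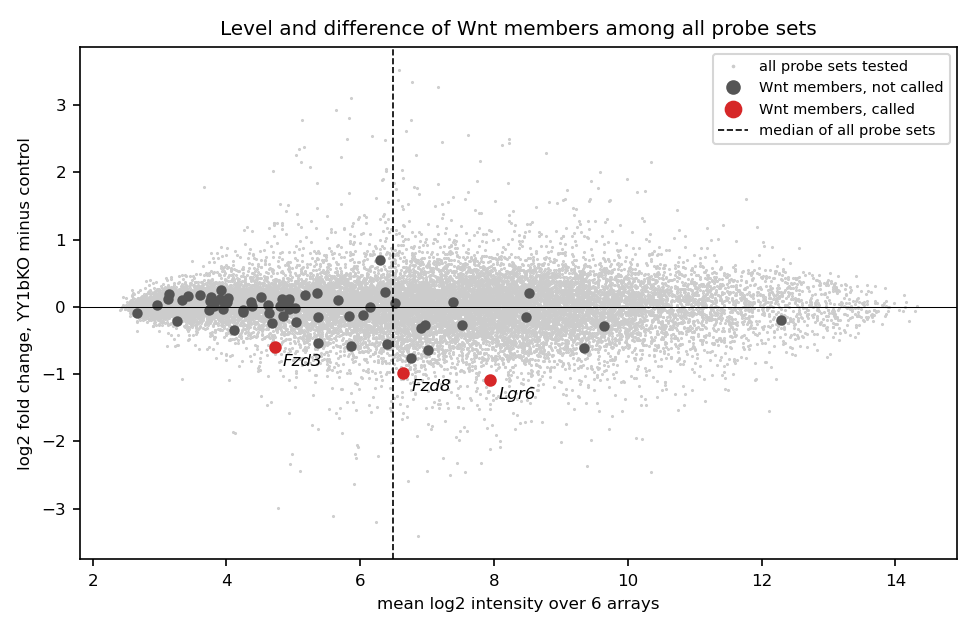
Log2 fold change (YY1bKO minus control, vertical axis) against the mean log2 intensity over the 6 arrays (horizontal axis) for all 22626 probe sets tested (grey), the 60 members not called (dark) and the 3 called (red), with the median of all probe sets at 6.48 as a dashed line. Most members sit left of that line, and the called ones all lie below 0.

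Frizzled receptors are the seven-pass membrane proteins that bind Wnt directly, and Fzd8 fell most among them. Its log2 intensity was 6.87, 7.35 and 7.17 in the control arrays and 6.14, 6.19 and 6.14 in the YY1bKO arrays. The YY1bKO arrays lay close together, and all were below the lowest control array. They were also below 6.48, the limit for a dim probe set, which the mean over the 6 arrays exceeded. YY1bKO tissue was 1.97-fold lower, a difference of -0.98 ± 0.13 (SE) with a limma adjusted p of 0.00488. It was called whichever array was left out, between -1.11 and -0.87, with adjusted p from 0.00293 to 0.0284. As in any whole tissue, fewer cells of a type and less RNA per cell cannot be told apart for this and every later difference.

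Lgr6, a receptor of R-spondins, was lower as well. Control arrays read 8.83, 8.29 and 8.34, and YY1bKO arrays 7.37, 7.81 and 7.03. Every YY1bKO array lay below every control array, with YY1bKO replicate 2 nearest to the controls. The difference of -1.09 ± 0.23 (SE), or 2.12-fold lower, had a limma adjusted p of 0.0216. Leaving out control replicate 1 ended the call (-0.92, adjusted p = 0.0662), and so did leaving out the YY1bKO arrays 1 (-1.07, 0.0789) or 3 (-0.90, 0.0677). Its relative Lgr5 was dim in both groups, at 4.33 ± 0.10 and 4.41 ± 0.16 (SD, n = 3), with a difference of 0.08 ± 0.11 (SE, adjusted p = 0.688).

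Fzd3 had 4 probe sets, all dim, and only 1 of them was called. That probe set read 4.96, 4.81 and 5.28 in control and 4.23, 4.53 and 4.51 in YY1bKO arrays, a difference of -0.60 ± 0.15 (SE, limma adjusted p = 0.0362). The groups did not overlap. The other 3 probe sets gave -0.15, 0.08 and 0.13, with adjusted p from 0.474 to 0.672, so the probe sets of this gene disagree. The call was lost without any array except control replicate 2, the highest adjusted p being 0.119, and at a log2 of intensity plus 32 (-0.27, adjusted p = 0.0624).

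Fzd4, the Frizzled that also binds norrin and is known from blood vessels, missed the threshold. Control arrays read 9.77, 9.43 and 9.74, and YY1bKO arrays 9.21, 8.68 and 9.22, so that the groups did not overlap. The difference was -0.61 ± 0.17 (SE, limma adjusted p = 0.0552). A second, dim probe set gave -0.53 ± 0.16 (adjusted p = 0.0663), again without overlap. The bright probe set was called without control replicate 2 (-0.72, adjusted p = 0.0246), with array weights (-0.69, adjusted p = 0.0216), in a fit to the brighter probe sets alone (0.0427) and with the trend and robust options (0.0429). It was not called without control replicate 1 (0.159) or 3 (0.127), nor without any 1 YY1bKO array (0.0903 to 0.114). Nor was it called under quantile normalization (0.0639), median centring (0.0566) or at a log2 of intensity plus 32 (0.0733).

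Endothelial markers were lower in YY1bKO tissue too, though their means did not follow Fzd4 from array to array within the controls. Of 9 measured, 5 were called lower, namely Cdh5, Cldn5, Egfl7, Kdr and Tek, and their median difference over the list was -0.53. The summed endothelial level ran from 12.05 to 12.34 in control and from 11.52 to 11.65 in YY1bKO arrays on the log2 scale, without overlap (the list mean had a two-sided exact permutation p of 0.1, the smallest that 3 against 3 arrays allow). Of the 9, 8 lay above the median intensity, and Tie1 was dim. The pericyte and smooth muscle list was split: Cspg4, Pdgfrb and Rgs5 were called lower, while the contractile genes Cnn1, Tagln, Myh11 and Acta2 gave 0.49, 0.38, 0.33 and 0.20, none called. Its median was -0.17, its summed level ran from 12.95 to 13.24 in control and from 12.69 to 12.80 in YY1bKO arrays, and the exact permutation p of its mean was 0.4. The part of these cell types in the differences of Fzd4, Fzd8 and Lgr6 was not tested.

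The brighter of the 2 Fzd6 probe sets showed a difference near that of Fzd4 with more spread. It read 7.05, 7.63 and 7.32 in control and 7.06, 6.24 and 6.76 in YY1bKO arrays, so that YY1bKO replicate 1 lay within the control range. The difference was -0.65 ± 0.23 (SE, limma adjusted p = 0.112), and the dim probe set gave -0.07 ± 0.13 (adjusted p = 0.776). The probe sets of Fzd1, Fzd2 and Fzd5 were dim, with differences from -0.24 to 0.09, and none was called. Over the 17 Frizzled probe sets 11 differences were below 0 and 6 above, with a median of -0.13.

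The co-receptor Lrp6 read 8.72, 8.41 and 8.55 in control and 8.42, 8.33 and 8.48 in YY1bKO arrays. The groups overlapped, and the difference was -0.15 ± 0.10 (SE, limma adjusted p = 0.389), with 0.08 ± 0.13 in its other probe set. Lrp5, the co-receptor known for its effect on bone mass, was dim at 4.27 ± 0.10 in control and 4.23 ± 0.07 in YY1bKO tissue (SD, n = 3). It read 4.38, 4.23 and 4.19 in control and 4.31, 4.16 and 4.23 in YY1bKO arrays. The difference was -0.04 ± 0.09 (SE, limma adjusted p = 0.821).

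**Figure D2:**
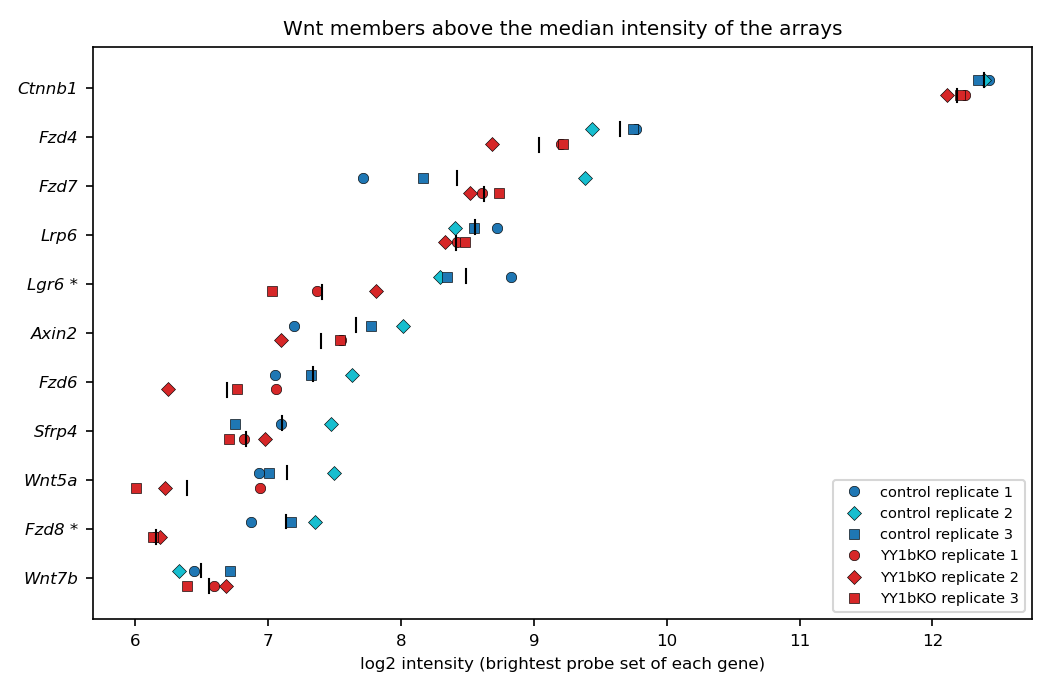
Log2 intensity (horizontal axis) in each of the 6 arrays for the brightest probe set of the 11 member genes above the median intensity, with control arrays in blue tones (replicate 2 in light blue) and YY1bKO arrays in red, and group means as vertical bars. Asterisks mark called genes; the 3 YY1bKO arrays lie left of the 3 control arrays for Ctnnb1, Fzd4, Lgr6 and Fzd8.

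Ctnnb1 encodes beta-catenin, which carries the signal of the canonical pathway and also links cadherins to the cytoskeleton. Its brightest probe set read 12.43, 12.39 and 12.35 in control and 12.24, 12.11 and 12.21 in YY1bKO arrays. The YY1bKO arrays lay below the controls in this and in both other probe sets. The 3 differences were -0.20 ± 0.08, -0.29 ± 0.09 and -0.32 ± 0.12 (SE), with limma adjusted p of 0.134, 0.0726 and 0.137, so none was called. At a log2 of intensity plus 32 the brightest (-0.20, adjusted p = 0.0446) and the second (-0.27, 0.0411) were called. The second was also called in a fit to the brighter probe sets alone (0.0473), with array weights (0.0399) and without control replicate 2 (-0.32, 0.0464). The brightest was not called with any array left out (adjusted p from 0.153 to 0.34) or with a block on the replicate number (0.225).

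Axin2, an inhibitor of the pathway that Wnt signalling itself induces in many cells, showed no called difference. Its bright probe set read 7.19, 8.01 and 7.78 in control and 7.55, 7.10 and 7.54 in YY1bKO arrays, with overlapping groups. The difference was -0.26 ± 0.23 (SE, limma adjusted p = 0.497), and a dim probe set gave 0.06 ± 0.13.

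None of the 23 ligand probe sets was called by limma. At an unadjusted p under 0.05 there were 2, Wnt5a lower and a dim probe set of Wnt7b higher. The median difference over the ligands was 0.06, with 14 above 0 and 9 below. Wnt5a, a ligand that mostly acts without beta-catenin, read 6.93, 7.50 and 7.0 in control and 6.94, 6.22 and 6.00 in YY1bKO arrays. YY1bKO replicate 1 lay at the level of the lowest control array, and the other YY1bKO arrays were below every control. The difference was -0.76 ± 0.26 (SE, limma adjusted p = 0.103), with -0.55 ± 0.25 (adjusted p = 0.189) in the other probe set. Without YY1bKO replicate 1 it was called (-1.03, adjusted p = 0.0396).

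Wnt10b, the ligand best known for restraining fat cell differentiation, was dim and close to equal. It read 5.57, 5.57 and 5.71 in control and 5.80, 5.54 and 5.81 in YY1bKO arrays, a difference of 0.10 ± 0.10 (SE, limma adjusted p = 0.57). The dim Wnt7b probe set read 3.80, 3.87 and 3.74 in control and 3.95, 4.12 and 4.08 in YY1bKO arrays, without overlap and without a call (0.25 ± 0.08, adjusted p = 0.0973), while the brighter one gave 0.06 ± 0.13. Wnt9a and Wnt10a were likewise higher in all YY1bKO arrays at dim levels, by 0.12 and 0.15, with adjusted p of 0.308 and 0.333.

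Some Wnt genes sit side by side in the genome. By the order of protein-coding genes on GRCm38.p6, 4 pairs of neighbours were members: Wnt6 with Wnt10a, Wnt3a with Wnt9a, Wnt9b with Wnt3, and Wnt10b with Wnt1. All 8 genes were dim, and their differences lay between -0.00060 and 0.20. No neighbouring pair held a called probe set.

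**Figure D3:**
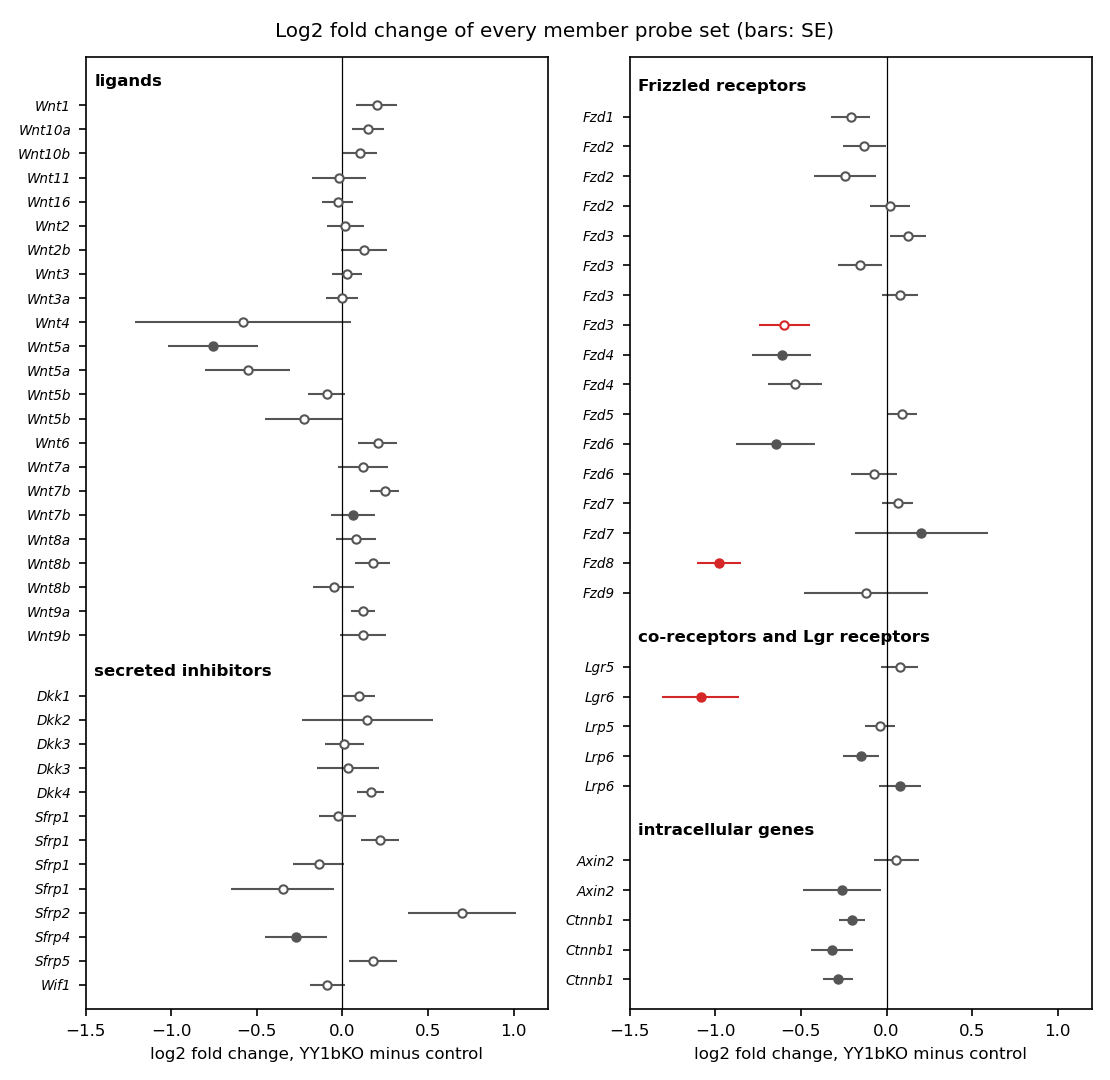
Log2 fold change (YY1bKO minus control, horizontal axis) with its SE for each of the 63 member probe sets, grouped by role, 1 row per probe set. Filled points are above the median intensity and open points are dim; red marks the 3 called probe sets, of Fzd8, Lgr6 and Fzd3.

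Secreted inhibitors held no called probe set by limma, of 13, and 0 at an unadjusted p under 0.05. Their median difference was 0.03. Sfrp5 read 4.92, 5.0 and 5.35 in control and 5.10, 5.39 and 5.31 in YY1bKO arrays, dim and overlapping, with a difference of 0.18 ± 0.14 (SE, limma adjusted p = 0.451). Sfrp4, the only inhibitor above the median intensity, read 7.09, 7.47 and 6.75 in control and 6.82, 6.98 and 6.71 in YY1bKO arrays (-0.27 ± 0.18, SE, adjusted p = 0.374).

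Sfrp2 gave the largest rise among the members without passing the test. It read 6.74, 5.46 and 5.63 in control and 6.74, 6.55 and 6.63 in YY1bKO arrays. Control replicate 1 was as high as the YY1bKO arrays, and the other controls lay below all of them. The difference was 0.70 ± 0.31 (SE, limma adjusted p = 0.191), and without control replicate 1 it was called (1.09, adjusted p = 0.00884).

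Sfrp1 had 4 dim probe sets with differences from -0.35 to 0.22, of which none was called. The brightest of them read 6.05, 6.44 and 6.27 in control and 6.43, 6.53 and 6.46 in YY1bKO arrays (0.22 ± 0.11, SE, limma adjusted p = 0.239), and it was called with array weights (0.32, adjusted p = 0.0495). The 5 Dkk probe sets were all dim, with differences from 0.01 to 0.16. Wif1 was dim, at 2.71 ± 0.10 in control and 2.63 ± 0.14 in YY1bKO tissue (SD, n = 3).

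Control replicate 2 stood above the other arrays for a number of members. That array gave the highest value of the 6 for 22 of the 63 member probe sets and the lowest for 12. The matching counts over all probe sets were not taken. Wnt4 read 7.79 there, and from 5.18 to 5.57 in the other 5 arrays. Fzd7 read 9.39 there, 7.72 and 8.16 in the other controls, and 8.61, 8.52 and 8.74 in YY1bKO arrays. Fzd9 read 6.95 there against 5.48 and 5.86, with 6.14, 6.13 and 5.66 in YY1bKO arrays, and Dkk2 read 5.37 against 3.88 and 4.06, with 4.58, 4.86 and 4.32.

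Skeletal muscle markers were also highest in control replicate 2. The mean over all 11 measured markers was 13.78 in control replicate 2, 11.34 and 11.06 in the other controls, and 12.47, 12.65 and 12.19 in YY1bKO arrays. The summed level ran from 14.79 to 17.28 in control and from 15.88 to 16.32 in YY1bKO arrays on the log2 scale, and 0 of the 11 were called by limma or had an unadjusted p under 0.05. With all arrays Fzd7 gave 0.20 ± 0.39 (SE, limma adjusted p = 0.782) and Dkk2 0.15 ± 0.38 (adjusted p = 0.842). Without control replicate 2, both were called higher, Fzd7 by 0.68 (adjusted p = 0.0171) and Dkk2 by 0.61 (adjusted p = 0.0355). In that comparison all YY1bKO muscle values exceeded both remaining controls. The means of the preadipocyte and fibroblast list and of the pericyte and smooth muscle list were also highest in control replicate 2, at 9.34 and 8.65. The means of the remaining lists each peaked in another array. The part of RNA from muscle or any other cell type in these values was not tested.

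**Figure D4:**
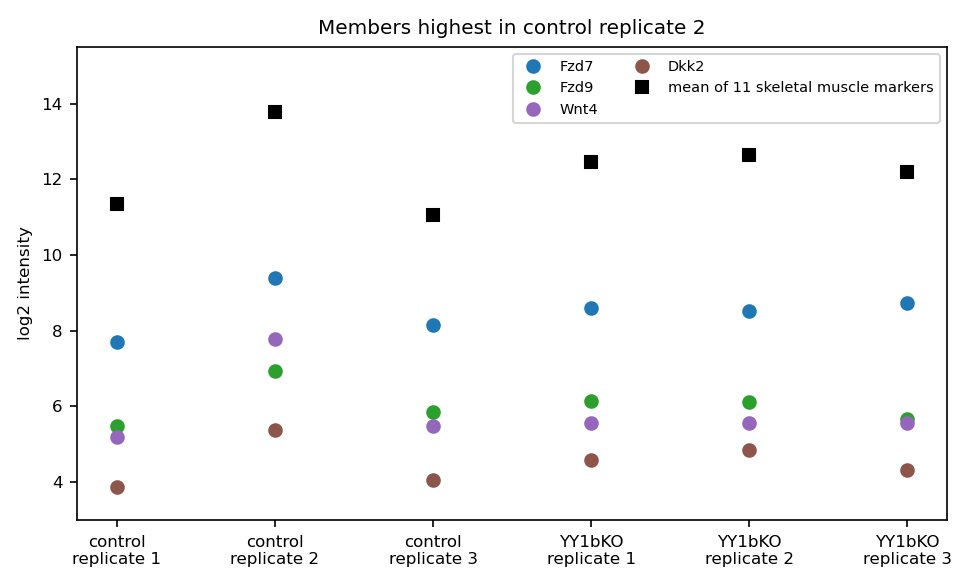
Log2 intensity (vertical axis) in each of the 6 arrays (horizontal axis) for Fzd7, Fzd9, Wnt4 and Dkk2 and for the mean of 11 skeletal muscle markers. All of them are highest in control replicate 2, where Wnt4 reads 7.79 and the muscle mean 13.78.

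Beyond the members, a list of other Wnt pathway genes had 54 of its 63 genes measured by 101 probe sets. Of these probe sets 6 were higher and 7 lower, from 4 genes each. That is 12.9% called, 5.94% as higher and 6.93% as lower, each under the share of all probe sets given above (16.0%, 8.83% and 7.16%). The median difference was -0.01. Without YY1bKO replicate 2 the counts were 1 and 0, and without control replicate 2 they were 10 and 12. Of all probe sets 6.76% and 22.5% were called in those fits. Genes for the release of ligands had 3 of 5 probe sets lower, all of Wls, and Porcn, which attaches the lipid to Wnt, was dim and gave 0.07.

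Wls, the membrane protein that carries lipid-modified Wnt to the cell surface, fell in all 3 of its probe sets. The brightest read 8.44, 8.30 and 8.23 in control and 7.89, 7.70 and 7.63 in YY1bKO arrays, without overlap. The differences were -0.58 ± 0.10, -0.49 ± 0.12 and -0.45 ± 0.10 (SE), with limma adjusted p of 0.0125, 0.039 and 0.0266. Leaving out YY1bKO replicate 2 ended the call of the brightest (-0.56, adjusted p = 0.0564), as did leaving out YY1bKO replicate 3 (-0.53, 0.0534). The other probe sets also lost theirs without control replicate 1 (adjusted p of 0.115 and 0.0805).

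Axin1, the scaffold of the complex that marks beta-catenin for destruction, rose. It read 8.09, 7.88 and 8.04 in control and 8.52, 8.67 and 8.67 in YY1bKO arrays, a difference of 0.61 ± 0.09 (SE, limma adjusted p = 0.00778), or 1.53-fold. The groups did not overlap, and the call held whichever array was left out (adjusted p from 0.00696 to 0.0396). A dim second probe set gave 0.28 ± 0.10 (adjusted p = 0.107).

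The other transducers and nuclear genes were split. Cby1, a beta-catenin antagonist, rose by 0.48 ± 0.10 (SE, limma adjusted p = 0.0224), and Pygo2, a coactivator of beta-catenin, by 0.38 ± 0.08 (adjusted p = 0.0203). The kinase gene Csnk1a1, whose product primes beta-catenin for destruction, fell by 0.48 ± 0.13 in 1 of 3 probe sets (adjusted p = 0.0478). Tcf7l1, a mostly repressive TCF factor, fell by 0.44 ± 0.09 in 1 of 2 probe sets (adjusted p = 0.0222). The call of Csnk1a1 ended under quantile normalization (-0.45, adjusted p = 0.0621) and at a log2 of intensity plus 32 (-0.47, 0.0546). Each of these 4 calls ended when control replicate 1 or any 1 YY1bKO array was left out, with adjusted p from 0.0655 to 0.153, and that of Cby1 also without control replicate 3 (0.061).

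Igfbp4, an insulin-like growth factor binding protein that can also block Frizzled and Lrp6, rose in 3 of its 6 probe sets, by 0.38 to 0.53. Its brightest probe set was not called (0.34 ± 0.13, SE, limma adjusted p = 0.141), and the rest gave 0.34 and 0.006 (adjusted p of 0.0603 and 0.98). The 3 calls of Igfbp4 ended when control replicate 3 or any 1 YY1bKO array was left out, with adjusted p from 0.057 to 0.128. It was the single called gene among the other extracellular inhibitors, whose 18 probe sets had a median of 0.25, where that of all probe sets was 0.03. Of the 18, 6 were of Igfbp4 itself, and every probe set of the remaining 6 genes was dim. Among 19 probe sets of common transcriptional targets 2 were lower and 0 higher by limma, with 3 and 0 at an unadjusted p under 0.05, a median of -0.23, and 18 differences below 0. The 19 came from 10 genes, with 3 each of Ccnd1, Id2 and Tnfrsf19, and 11 of them were dim. Over all 22626 probe sets 9885 differences were below 0. Of all probe sets 7.16% were lower, so a count of 2 is near that share. Both calls were of Ccnd1, which encodes cyclin D1, at -0.53 ± 0.12 and -0.55 ± 0.13 (SE, limma adjusted p = 0.026 and 0.0312). They ended when control replicate 1, YY1bKO replicate 1 or YY1bKO replicate 2 was left out (adjusted p from 0.0685 to 0.114), and that of -0.55 also without control replicate 3 (0.0663) or YY1bKO replicate 3 (0.102). Myc, the growth-promoting transcription factor, gave -0.81 ± 0.40 (adjusted p = 0.225).

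**Figure D5:**
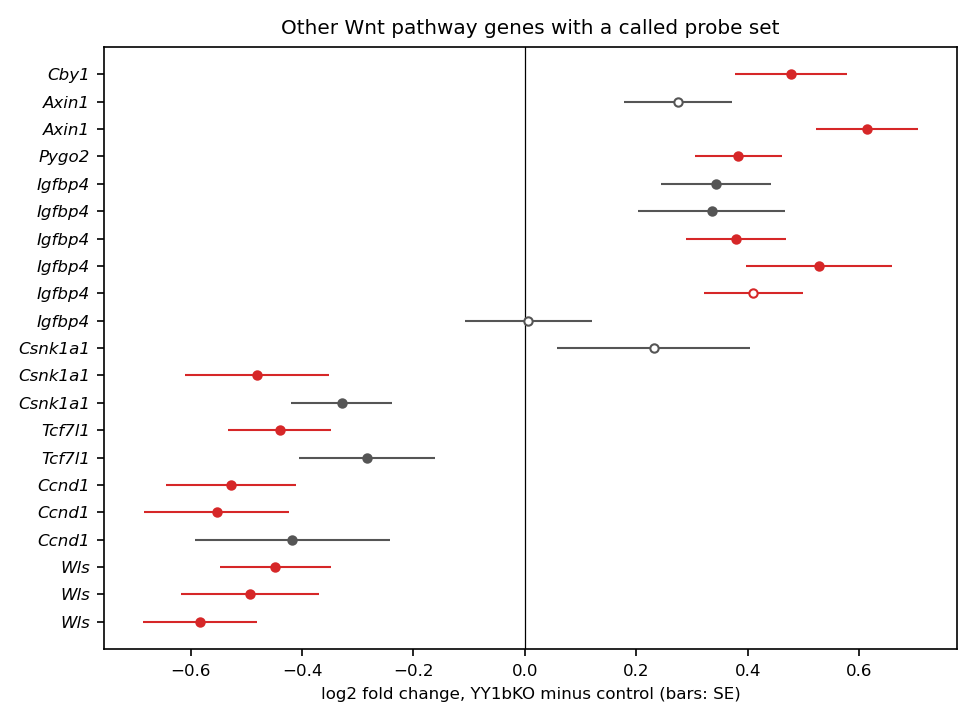
Log2 fold change (YY1bKO minus control, horizontal axis) with its SE for every probe set of the 8 other pathway genes with at least 1 called probe set, 1 row per probe set. Red marks called and grey uncalled probe sets, open points are dim; Wls, Ccnd1, Tcf7l1 and Csnk1a1 hold the lower calls, and Igfbp4, Pygo2, Axin1 and Cby1 the higher ones.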

How the data were processed

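From Trizol-extracted total RNA, 6 ug was labelled for Affymetrix arrays (labels' protocols). The deposited table holds intensities made by the authors with RMA, per the submitters' processing notes, which name no version or settings. They run from 4.91 to 21219 and were taken as linear and transformed to log2 here without a pseudocount. RMA as usually run brings all arrays to 1 distribution, which can hide a shift of most transcripts; the array medians here lie between 6.46 and 6.48.

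After 64 Affymetrix controls were removed, 22626 probe sets were tested, 20380 of them with 1 gene symbol in the platform annotation, 691 with several and 1555 with none. limma 3.58.1 in R 4.3.3 (lmFit, eBayes with default prior) was fitted with group as the sole term, two-sided, with Benjamini-Hochberg adjustment over all probe sets. SE is limma's moderated standard error. The fit was tested on simulated data. The number of arrays, 3 per group, limits the precision. Brightest means the highest mean over the 6 arrays. Marker values use the brightest probe set of each gene. Group values of a list were compared by an exact permutation test.

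Members and lists were chosen with earlier results of these data known. Full values are given for every called member and for Wnt5a, Wnt10b, Sfrp1, Sfrp5, Fzd4, Lrp5, Lrp6, Ctnnb1 and Axin2, with other members by role and the extremes of each role. All called pathway genes are named. Beyond this rule Fzd6, Fzd9, Wnt4, Dkk2, Sfrp4, Lgr5, Porcn, Myc and single values of other members were added after their values were seen. Alternatives were a filter on dim probe sets, 1 probe set per gene, quantile normalization, median centring, an offset of 32, array weights, a block on the replicate number, the trend and robust options of eBayes, and leaving out each array.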

Additional observations from a re-analysis of the deposited data

How the results depend on the processing

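Among the members the count called lower was 3, and 1 to 6 when an array was left out, highest when control replicate 2 was left out and lowest for control replicate 1 and YY1bKO replicate 3. The count called higher was 0, and 0 to 2 when an array was left out, 2 without control replicate 2 and 1 without control replicate 1. With array weights 6 members were lower and 1 higher. The share of all probe sets called also moved, from 16.0% to 24.1% with array weights and 22.5% without control replicate 2. It was 8.01% without control replicate 1, 12.3% without control replicate 3, and 6.76% to 7.18% without 1 YY1bKO array. In the other alternatives the members called lower numbered 2 to 4 and none was called higher. For the other pathway probe sets, 6 higher and 7 lower, the counts with an array left out ran from 1 to 10 and from 0 to 12. With array weights 16 were lower, and with 1 probe set per gene 3 were lower. All these counts rest on 3 arrays per group, and leaving out an array also lowers the residual degrees of freedom.

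Replicate numbers are shared between the groups, but same-numbered arrays did not clearly deviate together (correlations of their deviations -0.23, 0.09 and 0.24 for replicates 1, 2 and 3). These are deviations from means of 3 arrays, so the correlations cannot settle whether the numbers pair the samples. With the replicate number as a block, the members called stayed at 3 lower and 0 higher, while the other pathway probe sets called went to 2 higher and 2 lower. Under it Fzd4 was called (adjusted p = 0.0294) and Fzd3 was not (adjusted p = 0.0544). It ended the calls of 9 of the 13 other pathway probe sets called without it. Over all probe sets 2197 were called under the block and 3616 without it. Each array correlated best with its own number in 2 of 6 cases.

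Of the 34 member probe sets recomputed under the alternatives, 11 had differences that changed sign, none of them called with all arrays or where the sign had turned. With an array left out, Lrp5 ran from -0.076 to 0.019, Fzd7 from -0.15 to 0.68, Fzd9 from -0.43 to 0.30, Wnt4 from -1.07 to 0.24, Wnt7b from -0.024 to 0.17 and Dkk2 from -0.13 to 0.61. Lgr5 ran from -0.013 to 0.13, and the second probe set of Lrp6 from -0.039 to 0.16, 1 uncalled probe set of Fzd3 from -0.012 to 0.16, and the dim probe sets of Fzd6 from -0.22 to 0.016 and of Axin2 from -0.048 to 0.15. With array weights Fzd9 gave 0.23, Wnt4 0.023 and the dim Fzd6 probe set 0.059, and under quantile normalization the dim Axin2 probe set gave -0.0063. The cause was not tested.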
